A study of Rattus norvegicus with 20 samples.

Results

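The genes of the mitochondrial ribosome were described in the arcuate nucleus of the hypothalamus of 20 male rats. The rule for them used names alone and took genes whose annotated symbol began with Mrpl or Mrps, the prefixes of the large and small subunit proteins, followed by a number. The rule found 70 of the 16899 genes named on the array, at 153 of its 44254 spots. Of these, 69 had at least 3 values in each group and were tested among 13292 genes, 42 named with Mrpl and 27 with Mrps. The remaining gene, Mrps28, had 1 spot with too few values and was not tested. Kgd4 was annotated on the array by its older symbol Mrps36. Its protein is now known as a subunit of the 2-oxoglutarate dehydrogenase complex, so its values were kept by the rule but are named apart.

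All rats were Sprague-Dawley males killed at postnatal day 15, in 5 groups of 4. BYP, BYA and BYS rats were exposed before birth to betamethasone, a synthetic glucocorticoid, given to the mother in 2 injections of 0.4 mg/kg on gestational day 15. They then received NMDA, an agonist of glutamate receptors that triggers spasms, on postnatal days 12, 13 and 15. BYP rats were treated with PMX53, an antagonist of the complement receptor C5ar1, BYA rats with ACTH, a pituitary hormone in clinical use for infantile spasms, and BYS rats with saline. BNS rats had the same betamethasone exposure, no spasms and saline after birth. SNS rats had saline in place of betamethasone before birth, and like BNS rats they had no spasms and saline afterwards. No group with prenatal saline and NMDA was analysed here, and the labels and methods name no litter, so rats of a group may be littermates.

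Mitochondria keep their own ribosome, which translates the few proteins encoded by mitochondrial DNA, all of them core subunits of the respiratory chain and ATP synthase. Its RNAs come from the mitochondrial genome, whereas every one of its proteins is encoded in the nucleus, made in the cytosol and imported. Some of these proteins descend from bacterial ribosomal proteins, and others were added in the mitochondrial lineage. Neurons rely on the respiratory chain for most of their ATP.

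Each array carried a Cy3-labelled and a Cy5-labelled rat. Rats 1 and 3 of a group carried Cy3 and rats 2 and 4 carried Cy5 by the labels, although the dye label of SNS rat 2 was in doubt. Within a group, 1 array held rats 1 and 2 and another held rats 3 and 4, but SNS rats 1 and 2 lay on separate arrays, each beside a sample not analysed here. BYP, BYA, BYS and BNS each lay on a slide of their own, and SNS on 2 further slides that held none of the other groups. No slide held more than 1 group, so slide and group cannot be told apart in any comparison, and the spread between slides could be estimated from SNS alone. Between 34107 and 44249 spots had a value in a sample, and 32107 had one in all of them. Of the defining genes of arcuate neurons, Npy, Agrp and Pomc lay at the 99.4, 98.4 and 97.3 percentile of mean brightness over the genes tested, and Kiss1 at the 34.8 percentile. Over the 14 arcuate markers tested the percentile ran from 0.075 to 99.4, with a median of 86.4. Markers of other hypothalamic nuclei reached 97.4, and blood genes had a median of 94.9. RNA came from dissected tissue, so fewer cells of a type and less RNA per cell cannot be told apart in any value given here.

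Values are log2 intensities averaged over the spots of a gene, from which the sample's median over genes with complete values was subtracted. A value of 0 is thus the median gene of a sample, and 1 unit is a doubling. By brightness of their spots, 62 of the 69 members lay above the median gene. The brightest were Mrpl12, Mrpl20, Mrpl37, Mrpl54 and Mrpl28, with mean log2 values of 4.96, 4.84, 4.46, 4.24 and 4.17 over all rats. Mrpl12 belongs to the stalk of the large subunit, where translation factors bind. The dimmest were Mrpl47, Mrps10, Mrps27, Mrpl43 and Mrps5, with mean log2 values of -2.07, -1.82, -1.72, -1.15 and -0.54. Brightness also depends on the probe, so this order ranks spots and not transcripts. The SD of a member within a group, pooled over the groups, ran from 0.106 for Mrps21 to 1.13 for Mrpl38, with a median of 0.278.

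The first comparison asked how the members differed between betamethasone-primed rats with and without NMDA-induced spasms, both given saline. In BYS, 5 members fell against BNS. They were Mrps7, Mrpl28, Mrps33 and Mrps11 of the ribosome, together with Kgd4, and the falls lay between 1.55-fold and 2.92-fold. One member, Mrpl47, rose 1.74-fold. A gene was called at a limma adjusted p under 0.05 (Benjamini-Hochberg over all 13292 genes). The 6 called members were 8.70% of the 69, against 15.5% of all genes, of which 8.88% were called up and 6.62% down. At an unadjusted p under 0.05 limma gave 3 members up and 13 down, 16 in all, against 34% of all genes. The share of members called was therefore not above the share of all genes.

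Mrps7 encodes a protein of the small subunit with a bacterial homologue that binds the ribosomal RNA in the head of the subunit. Its log2 level was 0.64, 0.96, 1.79 and 2.49 in the 4 BYS rats, against 2.79, 3.41, 2.81 and 3.06 in BNS rats. All BYS rats lay below all BNS rats, but BYS rats 1 and 2, which shared an array, lay well below BYS rats 3 and 4. The log2 difference was -1.55 ± 0.31 (SE; adjusted p = 0.00374), a level 2.92-fold lower in BYS. Without the array of BYS rats 1 and 2, a setting chosen after seeing the data, the difference was -0.88 and no longer passed (adjusted p = 0.0551).

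Mrpl28, a protein of the large subunit with a bacterial homologue, had the smallest p of the members. Its log2 level was 2.90, 3.33, 3.17 and 3.56 in BYS rats, against 4.31, 4.49, 4.23 and 4.58 in BNS rats. All BYS rats lay below all BNS rats. The log2 difference was -1.17 ± 0.14 (adjusted p = 0.000108), which is 2.24-fold lower in BYS. It passed the threshold in all 25 alternative settings, where it ranged between -1.29 and -0.47 and the adjusted p reached at most 0.0450.

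Mrps33, a small subunit protein found in mitochondria alone, gave 2.37, 2.86, 2.32 and 2.81 in BYS rats, against 3.48, 3.79, 3.39 and 3.69 in BNS rats. Mrps11, a small subunit protein with a bacterial homologue on the platform of the subunit, gave 0.10, -0.04, 0.28 and 0.41 in BYS rats, against 1.17, 1.31, 1.11 and 1.13 in BNS rats. Neither gene overlapped between the groups. The log2 differences were -0.995 ± 0.21 for Mrps33 (adjusted p = 0.00531) and -0.99 ± 0.17 for Mrps11 (adjusted p = 0.00116), levels 1.99-fold and 1.98-fold lower in BYS. Kgd4 gave 1.92, 2.17, 1.96 and 2.40 in BYS rats, against 2.62, 2.78, 2.69 and 2.87 in BNS rats. Its groups did not overlap either, and the log2 difference was -0.63 ± 0.14 (adjusted p = 0.00616).

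Mrpl47, a large subunit protein beside the exit tunnel for the growing chain, was the only called member that was higher in BYS. Its log2 level was -0.94, -2.13, -1.11 and -2.11 in BYS rats, against -1.88, -2.87, -1.82 and -2.93 in BNS rats. Rats labelled with Cy5 lay about 1 unit below rats labelled with Cy3 in both groups, so the groups overlapped, and within each dye the BYS rats were higher. With the dye in the model the log2 difference was 0.80 ± 0.17 (adjusted p = 0.00479). Its spot was dim, at the 20.6 percentile of the genes tested. The commonest intensity of a sample, as deposited, was 0.210, 0.038, 0.170 and 0.029 in BYS rats, against 0.104, 0.023, 0.123 and 0.023 in BNS rats. Mrpl47 lay above it, at 0.318, 0.116, 0.278 and 0.113 in BYS rats, against 0.152, 0.067, 0.163 and 0.065 in BNS rats. The part of this common low value in the differences of Mrpl47, here and below, was not tested. Mrps7, Mrps33, Kgd4 and Mrpl47 each did not pass in 4 alternative settings, and Mrps11 in 2.

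**Figure D1:**
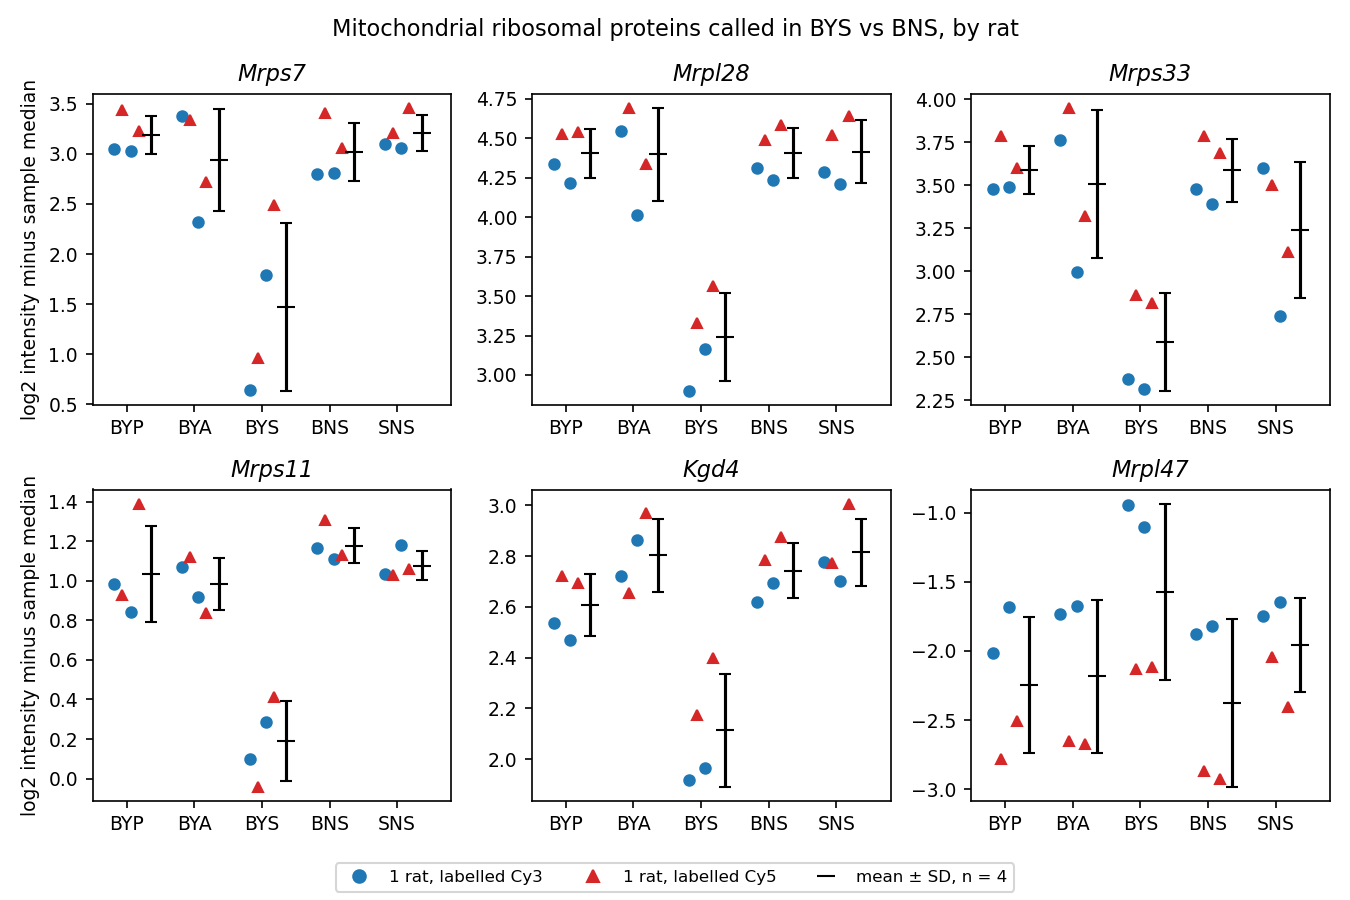
Log2 intensity minus the sample median of the 6 members called in BYS against BNS, in each of the 20 rats (circles Cy3, triangles Cy5; bars mean ± SD, n = 4). For Mrpl28 the BYS rats lay between 2.90 and 3.56 and all other rats at 4.01 or above, whereas Mrps7 in BYS ranged between 0.64 and 2.49.

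Promoter sequences are shown for the 5 members that fell in BYS, to set side by side what lies at their start sites. They were taken from RefSeq (build GRCr8), each 120 bases long, from 90 bases before the annotated start to 30 from it onward, read 5′ to 3′ on the strand of the gene. Capitals mark the letters searched for the factors YY1 (AAGATGGC) and SP1 (GGGCGG), on either strand.
Mrps7, chr10:101342552-101342671, plus strand: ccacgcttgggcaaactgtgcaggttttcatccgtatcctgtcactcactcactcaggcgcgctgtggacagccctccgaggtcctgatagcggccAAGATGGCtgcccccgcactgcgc
Mrpl28, chr10:15653089-15653208, plus strand: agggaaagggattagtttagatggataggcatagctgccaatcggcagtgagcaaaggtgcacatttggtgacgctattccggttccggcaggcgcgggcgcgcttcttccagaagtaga
Mrps33, chr4:69566909-69567028, minus strand: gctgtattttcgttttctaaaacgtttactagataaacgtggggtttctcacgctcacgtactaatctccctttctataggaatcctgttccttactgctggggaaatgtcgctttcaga
Mrps11, chr1:142117174-142117293, plus strand: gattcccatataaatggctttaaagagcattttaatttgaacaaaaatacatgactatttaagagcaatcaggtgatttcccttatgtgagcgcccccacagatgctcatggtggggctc
Kgd4, chr2:33612368-33612487, minus strand: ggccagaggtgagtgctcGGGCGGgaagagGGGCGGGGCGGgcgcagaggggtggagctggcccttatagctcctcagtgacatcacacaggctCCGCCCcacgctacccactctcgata
In these windows, Mrps7 held the YY1 letters and Kgd4 held those of SP1 several times, some of them overlapping, while Mrpl28, Mrps33 and Mrps11 held none of the letters searched.

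Over the whole family the search used promoters of 300 bases, 250 before and 50 after the start. RefSeq promoters were matched by symbol for 56 of the 70 members, and 54 had a single entry. The YY1 letters lay in 25.9% of the 54 promoters, against 5.01% of 10430 promoters of the genes tested and 3.17% of all 33469 promoters. The letters of ETS factors (CCGGAAG), the family that includes the biogenesis regulator GABP, lay in 31.5% of member promoters, against 15.7% and 8.75%. Those of SP1 lay in 51.9% against 58.6% and 33.1%. A match describes letters in a window and not binding.

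The other members were not called between BYS and BNS. Over all 69, 26 log2 differences were positive and 43 negative, with a median of -0.16 (range -1.55 to 0.80), against a median of 0.18 over all genes. Among genes brighter than the median, which hold most members, the median was -0.03. Groups did not overlap for 12 of the 69 members, or 17.4%, against 17.6% of all genes. The median of the members stayed below 0 under each scaling tried, at -0.11 with no centring or with centring on the 75th percentile, -0.09 after quantile normalization and -0.19 after the local trend across the array was removed. Relative to the median of all genes it was -0.34 as scaled here and -0.13 after quantile normalization, which moved the median of all genes to 0.04.

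By the prefix of the name, the 27 members annotated with Mrps held 4 of the falls, that of Kgd4 among them. Their median was -0.19, with 22 negative and 5 positive differences. The 42 named with Mrpl held 1 rise and 1 fall and a median of -0.06, with 21 differences of each sign. Among proteins with a bacterial homologue, 2 of 15 in the small subunit fell (Mrps7 and Mrps11), and in the large subunit 1 of 26 fell (Mrpl28) and 1 rose (Mrpl47). Among proteins listed as found in mitochondria alone, 1 of 8 in the small subunit fell (Mrps33), all 8 having differences below 0. None of 18 so listed in the large subunit was called. Those 18 include Mrps30 and Mrps18a, whose proteins lie in the large subunit despite their names. The placing of Mrps18a is in doubt, because Mrps18b and Mrps18c were listed with a bacterial homologue. Kgd4 and Mrps21l were in none of these lists. In the large subunit, none of the 2 stalk proteins and none of the 5 proteins of the central protuberance was called. Whether the subunits differed from each other was not tested.

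Lists of ribosomal proteins under other symbols, assembly factors, translation factors, aminoacyl-tRNA synthetases, mitochondrial transcription and biogenesis regulators held 92 other genes of the mitochondrion. In BYS against BNS 17 of them were called, 3 up and 14 down, which is 18.5% against 15.5% of all genes. The 14 that fell were 15.2%, against 6.62% of all genes and 11.9% of genes brighter than the median. The 10 with the largest differences are given here. Noa1, a GTPase needed to assemble the small subunit, had a log2 difference of -1.64 ± 0.26 (adjusted p = 0.000605), and Top1mt, the mitochondrial topoisomerase, one of -1.51 ± 0.20 (adjusted p = 0.000150). Lrpprc, which stabilises mitochondrial mRNAs, fell by 1.35 ± 0.15 on the log2 scale (adjusted p = 6.15e-05). Pprc1, a coactivator of mitochondrial biogenesis, fell by 1.16, Mrm2, a methyltransferase of the large subunit RNA, by 0.87, and Mterf1, a transcription termination factor, by 0.83. Gtpbp10, an assembly GTPase, fell by 0.77, Gadd45gip1, a protein of the large subunit, by 0.75, and Guf1, a translation factor, by 0.75. Gfm2, which splits the ribosome after translation, was the one gene of these 10 that rose, with a log2 difference of 0.89.

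Assembly factors had 6 genes down and 1 up of 24 (29.2% called), translation factors 2 down and 1 up of 16 (18.8%), and aminoacyl-tRNA synthetases 1 up of 18 (5.56%). Mitochondrial transcription genes had 4 down of 16 (25%), biogenesis regulators 1 down of 11 (9.09%), and ribosomal proteins under other symbols 1 down of 7 (14.3%). For reference, 13 of 79 cytosolic ribosomal proteins fell (16.5%, median -0.15), and of 82 genes of the respiratory chain and ATP synthase 7 fell and 2 rose (11% called, median -0.13). The mitochondrial ribosomal proteins, at 8.70% and a median of -0.16, were not set apart from these by any test. In the list of oligodendrocyte markers, 4 of 12 genes were up in the same comparison and none down, with a median log2 difference of 1.25. Of all genes 8.88% were called up, and their median difference was 0.18. The median brightness of the list lay at the 37.7 percentile. Lists for other cell types were also drawn up, and their differences are not given here. The sum of the linear intensities of these 12 genes, as deposited, ran from 4.56 to 9.64 in BYP, 8.68 to 10.9 in BYA, 7.74 to 13.1 in BYS, 5.57 to 8.93 in BNS and 7.69 to 13.2 in SNS, so BYS and SNS covered nearly the same range. In BYS against SNS none of the 12 was called, with a median of 0.55. The defining genes Mbp, Mog and Mobp lay at the 87.0, 46.8 and 59.9 percentile of brightness. The part of these markers in the members' differences was not tested.

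**Figure D2:**
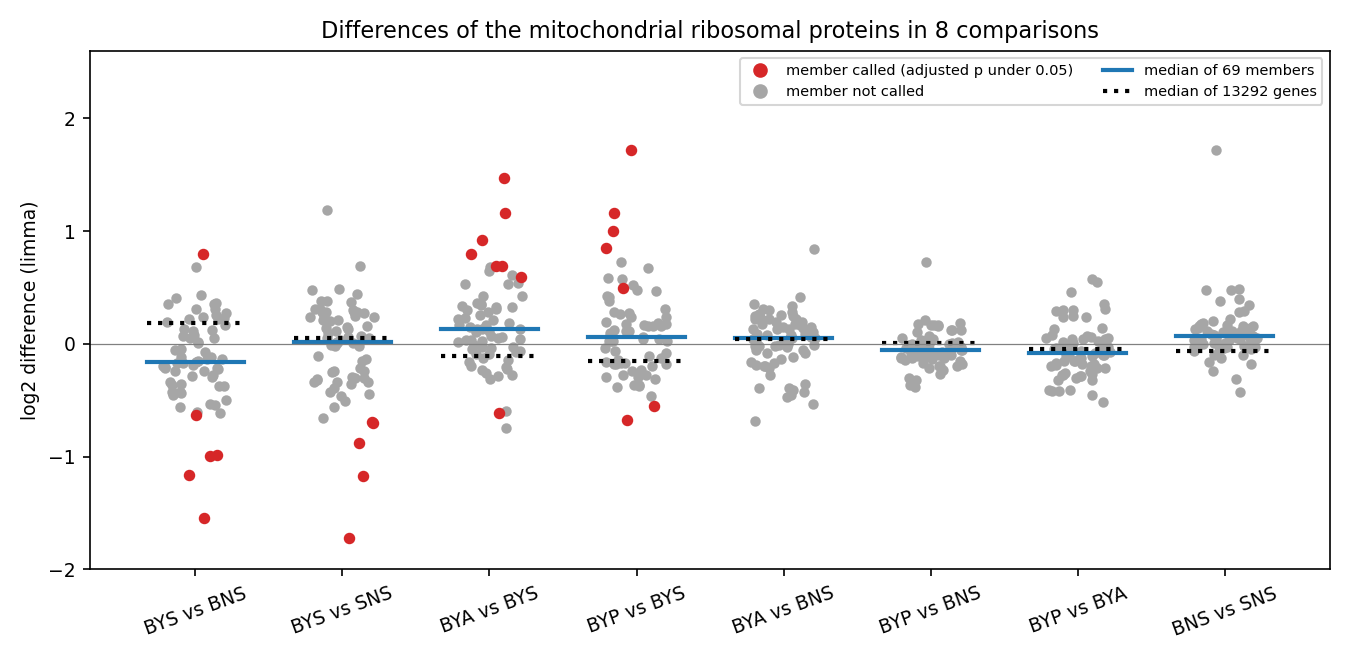
Log2 differences from limma of the 69 members in 8 comparisons, with called members in red, the median of the members as a solid line and the median of all 13292 genes as a dotted line. Called members lie only in the 4 comparisons that hold the BYS group, and the highest grey point of BNS against SNS is Mrpl38 at 1.72.

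The next comparison set BYS against SNS, that is, priming and spasms together against neither. It shares the BYS rats with the first. The same 5 members fell and none rose, 7.25% of the 69 against 7.58% of all genes, of which 2.39% were called up and 5.18% down. The log2 differences were -1.73 ± 0.29 for Mrps7 (adjusted p = 0.00126), -1.17 ± 0.14 for Mrpl28 (adjusted p = 6.30e-05), -0.88 ± 0.16 for Mrps11 (adjusted p = 0.00218), -0.70 ± 0.20 for Mrps33 (adjusted p = 0.0385) and -0.69 ± 0.13 for Kgd4 (adjusted p = 0.00264). Mrps33 gave 3.60, 3.50, 2.74 and 3.11 in SNS rats, its groups overlapped through SNS rat 3, and the difference did not pass in 11 of 26 alternative settings, among them without SNS rat 1 (-0.51, adjusted p = 0.141) and without BYS rat 1 or 3. Mrps7, Mrps11 and Kgd4 did not pass in 4 of 26 alternative settings, and Mrpl28 in 3. The median over the members was 0.01, against 0.05 over all genes, and 7 members did not overlap between the groups, or 10.1%, against 14.3% of all genes. The members' median turned to -0.06 once the local trend was removed.

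ACTH was examined by comparing BYA with BYS. In BYA 7 members rose and 1 fell, 11.6% of the 69 against 8.67% of all genes, of which 4.99% were called up and 3.69% down. Mrps7 was 2.77-fold higher in BYA, with log2 levels of 3.38, 3.34, 2.32 and 2.72 in BYA rats against 0.64, 0.96, 1.79 and 2.49 in BYS rats. BYA rats 1 and 2 lay far above the BYS rats, and BYA rat 3 lay below BYS rat 4. The log2 difference was 1.47 ± 0.31 (adjusted p = 0.00645). Mrpl28 gave 4.54, 4.69, 4.01 and 4.34 in BYA rats, all above the BYS rats, a level 2.23-fold higher (1.16 ± 0.14, adjusted p = 8.79e-05).

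Mrps33 (0.92 ± 0.21), Mrps11 (0.80 ± 0.17) and Kgd4 (0.69 ± 0.14) were also higher in BYA, without overlap between the groups. The others that rose were Mrps9 and Mrpl44, which had not been called against BNS. Mrpl44, a large subunit protein of mitochondria alone, gave 2.71, 2.86, 2.72 and 2.96 in BYA rats, against 2.12, 2.58, 1.88 and 2.30 in BYS rats, with no overlap and a log2 difference of 0.59 ± 0.13 (adjusted p = 0.00945). Mrps9, a small subunit protein with a bacterial homologue, gave 1.06, 1.34, 1.23 and 1.70 in BYA rats, against 0.17, 0.25, 0.83 and 1.35 in BYS rats, with overlap. Its difference of 0.69 ± 0.21 passed narrowly (adjusted p = 0.0499) and did not pass in 19 of 25 alternative settings. Mrpl47 was the member that fell, by 0.61 ± 0.17 on the log2 scale (adjusted p = 0.0293). It did not pass in 10 of 24 alternative settings, among them without BYS rat 1 (-0.54, adjusted p = 0.0566) and without BYS rat 3 (-0.59, adjusted p = 0.0514). Of 25 alternative settings, Mrps7 and Mrps33 did not pass in 6, Mrps11, Kgd4 and Mrpl44 in 5, and Mrpl28 in 2. The groups did not overlap for 6 of the 69 members, or 8.70%, against 10.1% of all genes.

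PMX53 was examined in the same way, by comparing BYP with BYS. In BYP 5 members rose and 2 fell, 10.1% of the 69 against 9.68% of all genes, of which 5.36% were called up and 4.33% down. Mrps7 gave 3.05, 3.44, 3.03 and 3.22 in BYP rats, every one above the BYS rats and above 3, and was 3.28-fold higher in BYP (1.72 ± 0.31, adjusted p = 0.00218). Mrpl28 gave 4.34, 4.52, 4.22 and 4.54 in BYP rats, also with no overlap, and was 2.24-fold higher (1.16 ± 0.14, adjusted p = 0.000124). Mrps33 (1.00 ± 0.21), Mrps11 (0.85 ± 0.17) and Kgd4 (0.49 ± 0.14) were higher as well. Mrps33 and Mrps11 did not pass in 4 of 25 alternative settings, Mrps7 in 3 and Mrpl28 in 2. Kgd4 did not pass in 9 of 25 alternative settings, 4 of them without 1 rat, namely BYS rat 3 or BYP rat 1, 2 or 4 (0.45 to 0.49, adjusted p between 0.0556 and 0.0686).

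Mrpl47 fell by 0.67 ± 0.17 on the log2 scale in BYP (adjusted p = 0.0173), but did not pass in 7 of 24 alternative settings, such as without BYP rat 1 (-0.61, adjusted p = 0.0516). The other member that fell was Mrpl15, a large subunit protein with a bacterial homologue, by 0.55 ± 0.17 (adjusted p = 0.04998). Mrpl15 gave 0.44, 0.74, 0.23 and 0.42 in BYP rats, against 0.75, 1.19, 0.71 and 1.40 in BYS rats, overlapping through BYP rat 2, and it did not pass in 15 of 25 alternative settings. The groups did not overlap for 10 of the 69 members, or 14.5%, against 11.9% of all genes. The median of the members was 0.13 in BYA and 0.06 in BYP, each against BYS, with medians over all genes of -0.11 and -0.15. The BYP median turned to -0.02 with no centring or with centring on the 75th percentile, and centring on the 75th percentile moved the median of all genes in BYA to -0.22.

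These comparisons share the BYS rats with the first, so a member low in BYS alone appears in each of them. Set directly against BNS, no member was called by limma in BYA (background 0.241% of all genes) or in BYP (0.0301%). For Mrpl28 the log2 differences from BNS were -0.01 ± 0.14 in BYA and 0.00 ± 0.14 in BYP, and for Mrps7 they were -0.08 ± 0.31 and 0.17 ± 0.31. At an unadjusted p under 0.05 limma gave 2 members in BYA (9.76% of all genes) and 1 in BYP (5.46%). The methods' t-test, which allows unequal variances, gave 9 members in BYA (8.87% of all genes) and 3 in BYP (6.37%) before adjustment, and 0 in both after it. The members of smallest p in BYA against BNS were Mrpl43 (log2 difference 0.84 ± 0.33), Mrps21 (0.30 ± 0.13) and Mrpl1 (0.33 ± 0.17), at adjusted p between 0.424 and 0.548. In BYP against BNS they were Mrpl43 (0.73 ± 0.33), Mrps5 (-0.30 ± 0.15) and Mrpl14 (-0.32 ± 0.18), at adjusted p between 0.903 and 0.989.

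Mrpl43, a large subunit protein of mitochondria alone, headed both lists. Its log2 level was -0.78, -0.72, -0.93 and -1.25 in BYP rats and -1.14, -0.86, -0.68 and -0.54 in BYA rats, against -1.42, -2.03, -1.26 and -1.86 in BNS rats. Neither treated group overlapped with BNS, and the spot was dim, at the 35.8 percentile. The groups did not overlap for 9 members in BYA against BNS, or 13.0%, with 7.98% of all genes, and for 4 in BYP against BNS, or 5.80%, with 5.69% of all genes.

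Between the treatments, no member was called in BYP against BYA (background 0.0301%), where limma gave 4 members at an unadjusted p under 0.05 (4.62% of all genes). The methods' t-test gave 7 before adjustment (4.14% of all genes) and 0 after it. The smallest p belonged to Mrpl1 (-0.42 ± 0.17), Mrpl14 (-0.41 ± 0.18) and Mrpl37 (-0.42 ± 0.17), each at an adjusted p of 0.934. Mrpl37, a large subunit protein of mitochondria alone, gave 4.13, 4.34, 4.04 and 4.41 in BYP rats, against 4.49, 4.75, 4.68 and 4.69 in BYA rats. The groups did not overlap for 7 of the 69 members, or 10.1%, against 3.19% of all genes.

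Prenatal betamethasone alone was examined by comparing BNS with SNS, and no member was called (background 0.00752%). At an unadjusted p under 0.05 limma gave 3 members up and 1 down, where 14.9% of all genes passed that threshold, and the methods' t-test gave 0 before and after adjustment (6.79% of all genes before it). The smallest p belonged to Mrpl47 (-0.43 ± 0.16), Mrpl53 (0.38 ± 0.15) and Mrps26 (0.28 ± 0.13), at adjusted p between 0.271 and 0.310. Groups did not overlap for 1 member, 1.45% of the 69 against 5.67% of all genes. Mrpl38, of the central protuberance and named after its values were seen, had the largest difference, 1.72 ± 0.82 (adjusted p = 0.335). Its log2 level was 1.19, 1.38, 1.06 and 1.38 in BNS rats, against 0.98, 1.15, -4.10 and -1.23 in SNS rats. SNS rats 3 and 4, which shared an array, lay far below all other rats at this spot.

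The members also held a check on single spots, because 8 of them had 10 or 11 spots on the array, 81 in all. These were Mrpl13, Mrpl32, Mrpl53, Mrps16, Mrps18c, Mrps23, Mrps35 and Mrps5. In BYS against BNS the log2 differences of the spots of 1 gene covered a range between 0.922 (Mrpl53) and 1.67 (Mrpl32), with a median of 1.29, and all 8 genes had spots of both signs. The spots of Mrpl32 ran from -1.35 to 0.33, those of Mrps5 from -1.07 to 0.54 and those of Mrps23 from -1.18 to 0.40. In BYA against BNS the median range was 0.689, with both signs in 6 genes. In BYP against BNS it was 0.239, with both signs in 4 genes, so spots of 1 gene agreed more closely there than in BYS. Whether the spots of a gene carry 1 probe sequence is not given in the sources used here.

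**Figure D3:**
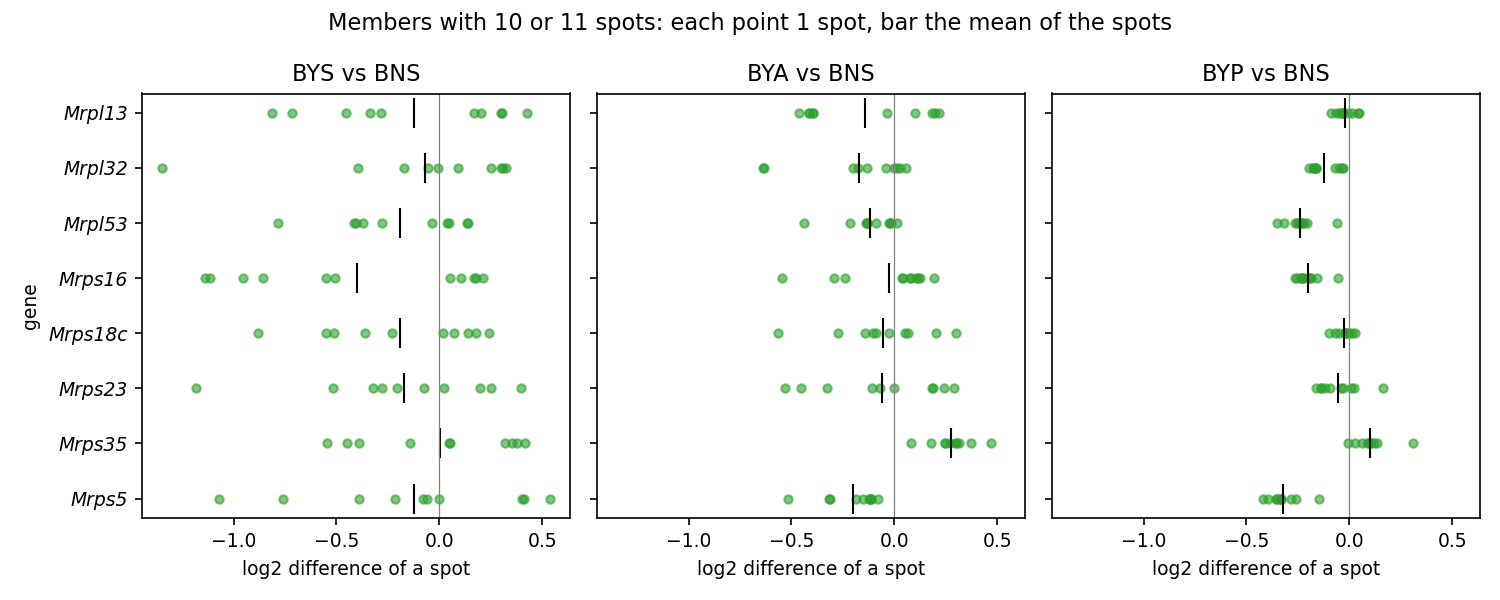
Log2 differences of single spots for the 8 members with 10 or 11 spots, in BYS, BYA and BYP against BNS (each point 1 spot, bars the mean of the spots of a gene). The points of a gene spread over 0.922 to 1.67 in BYS and over 0.128 to 0.325 in BYP.

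Every called member rested on 1 spot. Of the 53 members tested on 1 spot, 6 were called in BYS against BNS, or 11.3%, and of the 16 with several spots none, where limma gave 3 at an unadjusted p under 0.05. Some of these 16 averaged spots of unlike brightness, 5.70 log2 units apart for Mrpl10, 4.61 for Mrps21 and 3.89 for Mrpl17. For Mrpl10 the bright spot had a log2 difference of -0.67 and the dim spot 0.05. Over all genes, 17.8% of those with 1 spot and 10.8% of those with several were called.

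The differences of member spots moved with their place on the array. The array was divided by feature number into 70 blocks, and the median difference of all spots in a block ran from -0.63 to 0.57 in BYS against BNS and from -0.10 to 0.21 in BYP against BNS. Over the 150 member spots, the difference in BYS against BNS correlated with the median of the block at Pearson's r of 0.778, and over all 32107 spots at 0.588. In BYP against BNS the values were 0.448 and 0.201. Spots of a block share array, slide and labelling, so these are descriptions with no p. The blocks of Mrpl28, Mrps11, Mrps33, Mrps7 and Kgd4 had medians of -0.57, -0.41, -0.37, -0.22 and -0.20, and that of Mrpl47 had 0.44, each on the side of the difference of the member.

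**Figure D4:**
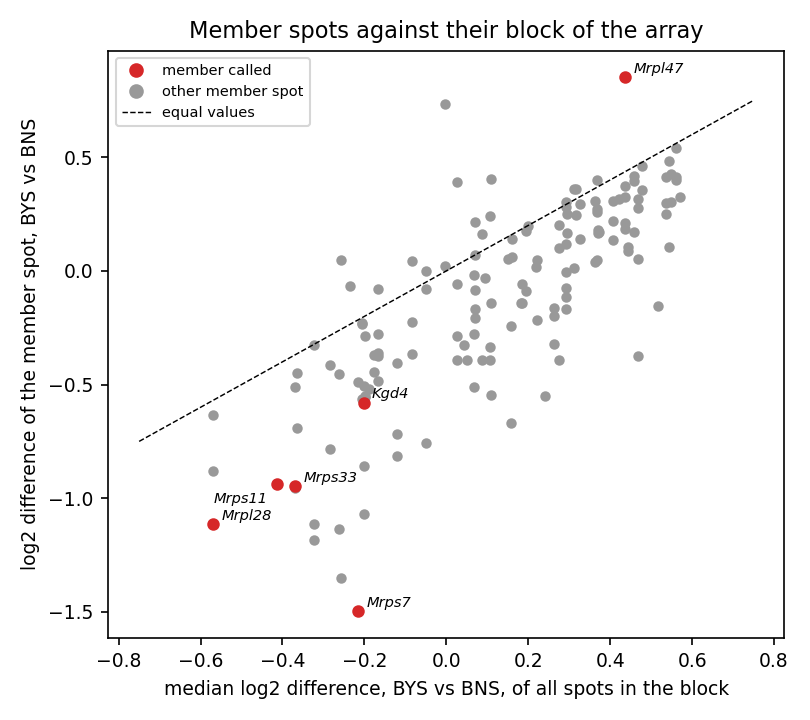
Log2 difference of each of the 150 member spots in BYS against BNS, set against the median difference of all spots in its block of the array, with called members in red and the line of equal values dashed. Spots and blocks vary together (Pearson's r 0.778), and Mrps7 lies furthest below its block.

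Once this local trend was removed from each sample, 2 members were called in BYS against BNS, both down, 2.90% against 9.27% of all genes. Mrps7 had a log2 difference of -1.20 (adjusted p = 0.0217) and Mrpl28 one of -0.47 (adjusted p = 0.0450). Mrps11 (-0.45), Mrps33 (-0.49), Kgd4 (-0.29) and Mrpl47 (0.41) kept their direction but did not pass, at adjusted p between 0.0669 and 0.192. Of the members called in the other comparisons, Mrps7 still passed in BYS against SNS (-1.33), Mrpl28 in BYA against BYS (0.54), and Mrps7 (1.34) and Mrpl28 (0.55) in BYP against BYS. With the slide in place of the array as the random block and no local correction, Mrpl28, Mrps11 and Mrpl47 passed in BYS against BNS, and Mrps7, Mrps33 and Kgd4 did not (adjusted p between 0.0660 and 0.103). After removal of the trend, 58 of the 69 differences were negative, 84.1%, against 40.6% of all genes and 63.5% of genes brighter than the median. Of the 10 other genes named above, Noa1, Top1mt, Lrpprc, Mrm2, Mterf1, Guf1 and Gfm2 passed after removal, and Pprc1, Gtpbp10 and Gadd45gip1 did not.

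The arrays of a group also differed from each other. In BYS the mean of rats 1 and 2 differed from that of rats 3 and 4 by over 0.5 log2 units for 22 of the 69 members (31.9%, against 19.8% of all genes), and in BYA for 12 (17.4%, against 14.9%). In BYP this held for 2 members (2.9%, against 5.54%) and in BNS for 1 (1.45%, against 1.8%). In BYS the gap was -1.34 for Mrps7, -1.19 for Mrpl42, -1.09 for Mrpl50 and -1.06 for Mrpl12, rats 1 and 2 being lower. Mrpl12 gave 3.80, 4.36, 4.77 and 5.52 in BYS rats, against 4.78, 5.20, 4.70 and 5.27 in BNS rats, and was not called (-0.38 ± 0.23, adjusted p = 0.257). In BYA the largest gaps were 1.46 for Mrps21l, 1.32 for Mrpl30 and 1.30 for Mrps30, rats 1 and 2 being higher.

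Over the family as a whole, the median of the 69 members in each rat, relative to the mean of each gene over all rats, was 0.004 ± 0.12 in BYP, 0.12 ± 0.09 in BYA, -0.05 ± 0.22 in BYS, 0.06 ± 0.15 in BNS and 0.008 ± 0.08 in SNS (mean ± SD of log2 values, n = 4 each). The groups overlapped, BYS being the most spread, from -0.30 to 0.20. In each group both Cy5 rats lay above both Cy3 rats.

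**Figure D5:**
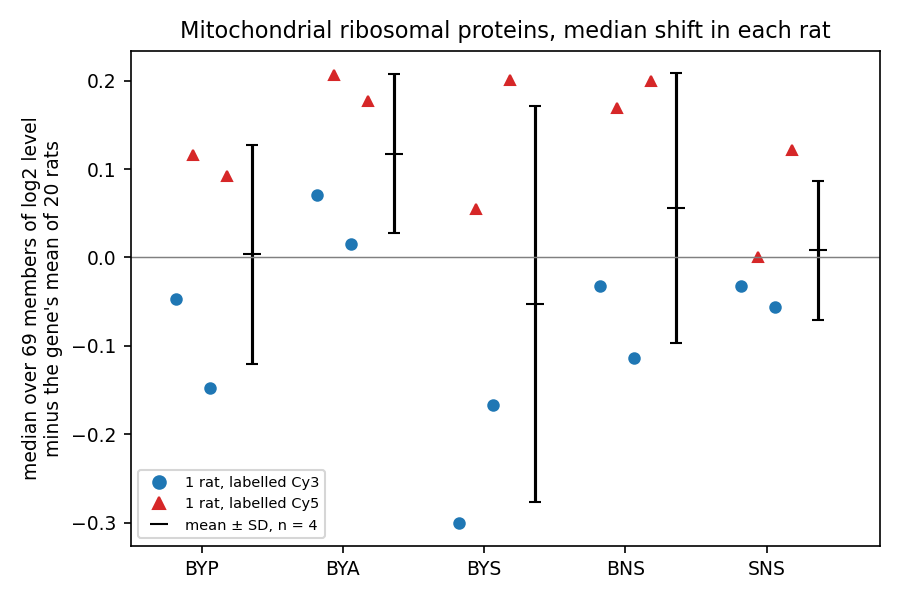
Median over the 69 members of the log2 level minus the mean of the gene over all 20 rats, in each rat (circles Cy3, triangles Cy5; bars mean ± SD, n = 4). BYS ranged from -0.30 to 0.20 and BYA from 0.02 to 0.21, and Cy5 rats lay above Cy3 rats in every group.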

How the data were processed

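Total RNA of the dissected arcuate nucleus was hybridised by the authors to 2-colour Agilent rat arrays with a sample in each channel, and the arrays were scanned and extracted with Agilent Feature Extraction 10.7.3.1. The deposited values are intensity values on a linear scale, 1 for each spot and sample. How these intensity values were corrected for background, filtered and normalized by the authors is not given in the sources used here, and they are relative. A sample had values at 34107 to 44249 spots and a median of 0.663 to 0.728 over complete ones. Precision is limited by the 4 rats in a group.

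Intensities were converted to log2, averaged over the spots of a gene and centred on each sample's median over genes with complete values. Values of single spots were centred on each sample's median over complete spots. A gene needed 3 or more values per group, which kept 12493 genes with complete spots and 799 by their most complete spot. Spots were named through the platform annotation and a table of rat genes. The 13292 genes were fitted in R 4.3.3 by limma 3.58.1 (two-sided tests), with terms for the 5 groups and the dye, and with arrays as random blocks (correlation 0.436 within an array). Calls used a Benjamini-Hochberg adjusted p under 0.05 over all genes in each of 8 comparisons. The model differs from the unequal-variance test of the study because a rat shares its array with another. That test is an alternative here, without the fold-change cut-off for each gene that the study also required.

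Blocks of array position were 38 by 17 spots, with 85 spots to a line inferred from the correlation of neighbouring feature numbers. The local trend was the median deviation of a block in each sample. The limma fit alone was tested on simulated data, with normal errors correlated within an array. That simulation held no effect of dye, slide or place on the array. The data.table package (version 1.17.8) was used in R, and plots were made with matplotlib 3.10.9 in Python 3.11.15.

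Named members are those called in a comparison, the 3 of smallest p where fewer than 3 were called, the 5 brightest, the 5 dimmest, the 3 whose spots disagreed most, and the 10 largest calls among the other mitochondrial genes listed. The family, with its rule on names, and the lists were chosen with earlier results of these data known.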

Additional observations from a re-analysis of the deposited data

Results flagged for a closer look

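Within each group of 4 rats, the gap between the highest or lowest rat and its nearest neighbour was set against the range of the group, for 24 named members in 5 groups. Dixon's critical value is passed by chance in about 1 in 20 groups of values drawn alike, and 3 of 120 groups passed it. The rats of a group carried 2 dyes and the values were not corrected for dye, so that rate may not hold here. All 3 were in SNS, whose rats 1 and 2 lay on separate arrays, unlike those of the other groups. For Mrpl1 the share was 0.846, with SNS rat 3 lowest at a log2 level of 2.03 and the other SNS rats between 2.08 and 2.09, so that the whole range was narrow. For Mrpl53 the share was 0.850, with SNS rat 3 lowest at 2.83 and the others between 3.29 and 3.37. For Mrps9 the share was 0.895, with SNS rat 1 lowest at 1.00 and the others between 1.13 and 1.14. None of these members was called in BNS against SNS or in BYS against SNS.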

How the results depend on the processing

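Counts of called members are given in the order BYS against BNS, BYS against SNS, BYA against BYS and BYP against BYS, where they were 6, 5, 8 and 7. For most settings below, the share of all genes called is not given. A change in a count is therefore not read as a result about the members. With the slide as the random block the counts were 3, 3, 1 and 1, and after removal of the local trend 2, 1, 2 and 2. That removal left 9.27%, 1.5%, 2.87% and 4.17% of all genes called. With no random block the counts were 17, 9, 16 and 16, and with SNS rat 2 taken as Cy3 17, 13 and 14 in the first 3. With the compared groups alone they were 17, 1 and 2 in the first 3, and 1 in BYP against BNS. Quantile normalization gave 10, 13 and 11 in the first, second and last, with 4 up and 6 down in BYS against BNS (1 and 5 as scaled here), 5 up and 8 down in BYS against SNS (0 and 5), and 5 up and 6 down in BYP against BYS (5 and 2). The methods' t-test gave 13, 9, 9 and 11 before adjustment, against 19.8%, 15.4%, 12.1% and 14.1% of all genes. After adjustment it gave 2, 0, 0 and 0. Before adjustment it also gave 9 in BYA against BNS, 3 in BYP against BNS and 7 in BYP against BYA.

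Leaving out 1 rat at a time gave 6 to 10, 4 to 10, 6 to 12 and 4 to 8, and 0 in every other comparison. The count was 10 without BYS rat 4 in the first, 10 without SNS rat 2 in the second, and 4 without BYP rat 1 in the last. Settings added after seeing the data left out arrays or a dye. Without the array of BYS rats 3 and 4 the counts were 15, 13, 16 and 13, and without that of BYS rats 1 and 2 the third was 5. With Cy5 samples alone they were 1, 0, 0 and 0. The cause of these changes was not tested, except that fewer samples enter the last settings.

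Same-numbered rats share a dye. Once dye means were removed, 40 such pairs correlated between -0.41 and 0.20, with a median of -0.04 and 6 pairs above 0.1. These values show no general pairing by number, and a shared litter or handling by number was not tested. A replicate block in place of the dye term gave 6, 5, 7 and 6. No called value changed sign. Of 930 values of named members under an alternative, 776 kept their side of the threshold, 146 no longer passed and 8 passed newly. In the setting of the unadjusted t-test, the unadjusted p was set against the threshold. Of 194 medians over the members, 193 moved by less than the SD of 0.144 between rats. That SD holds the offset between dyes and is not small beside the medians, so it is a wide measure. The median of BYS against BNS ran from -0.26 to -0.03 within it, and that of BYP against BYS from -0.03 to 0.15.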
